A study of Mus musculus with 6 samples.

Results

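Serum response factor (SRF), its MRTF and myocardin cofactors and the ternary complex factors were examined as mRNA in leukemia cells sorted from bone marrow after cytarabine or without it. The genes were taken by symbol: Srf, Mkl1 (now Mrtfa, encoding MRTF-A), Mkl2 (now Mrtfb, encoding MRTF-B), Myocd, Elk1, Elk3 and Elk4. All 7 were found among the 23284 genes of the deposited tables. RNA came from C1498 cells, a murine acute myeloid leukemia (AML) line made to express GFP and grown from 1 selected clone, which had been transferred into adult female C57BL/6J mice. GFP-positive, CD49b-positive cells were sorted from bone marrow on day 21 after transfer, from 3 cytarabine-treated mice (cytarabine 1 to 3) and 3 control mice (control 1 to 3) that are labelled both as untreated and as given PBS. Each mouse gave 1 library, and p-values measure the spread between these mice only. Triplets of values below follow the library numbers 1, 2 and 3. Mice of both groups had received the same cells, and by design the groups differed by cytarabine, a nucleoside analog that blocks DNA synthesis. The RNA of the sorted cells differed in other ways too, which are described below.

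SRF is a MADS-box transcription factor that binds the CArG box, a short A/T-rich element, and drives different genes with different partners. The MRTFs are held in the cytoplasm by monomeric actin and enter the nucleus when RhoA signaling drives actin into filaments, where they switch on cytoskeletal and contractile genes. Myocardin is their muscle-restricted relative. The ternary complex factors Elk1, Elk3 (Net) and Elk4 (Sap-1) are ETS proteins that bind beside SRF, are phosphorylated by MAP kinases and control immediate-early genes, and Elk3 is also known as a repressor. SRF activity is thus set largely by localization and phosphorylation, and an mRNA level does not measure it.

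The Srf and Elk4 promoters are shown because they are the only member promoters in which an exact match to the motif of their own protein family was found. The windows run from 250 bases before to 50 bases after a start site (RefSeq, GRCm38.p6), and 6 of the 7 members had at least 1 window. The Srf window is chr17:46556113-46556412 on the minus strand, with CArG boxes in capitals. The Elk4 window is chr1:132007370-132007669 on the plus strand, with the ETS motif CCGGAAGT in capitals.
Srf promoter: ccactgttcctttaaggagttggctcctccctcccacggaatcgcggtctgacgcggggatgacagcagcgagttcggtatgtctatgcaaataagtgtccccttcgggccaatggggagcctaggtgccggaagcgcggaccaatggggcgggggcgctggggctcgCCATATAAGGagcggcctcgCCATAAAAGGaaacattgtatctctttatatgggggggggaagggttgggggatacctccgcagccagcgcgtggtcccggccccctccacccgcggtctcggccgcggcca
Elk4 promoter: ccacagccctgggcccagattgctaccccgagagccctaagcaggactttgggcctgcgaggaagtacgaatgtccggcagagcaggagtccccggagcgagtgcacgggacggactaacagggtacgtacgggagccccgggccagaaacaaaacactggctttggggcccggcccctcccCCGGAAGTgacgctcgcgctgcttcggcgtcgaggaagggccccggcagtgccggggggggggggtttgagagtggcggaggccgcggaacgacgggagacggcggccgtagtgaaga
The 2 CArG boxes of Srf, CCATATAAGG and CCATAAAAGG, begin 82 and 62 bases before the start site. A CArG box (read on both strands, which its symmetry makes equivalent) was present in 1.63% of all 32851 promoter windows, and 2 or more were present in 6 windows (0.0183%), that of Srf included. Srf is itself a known SRF target, so among the 7 genes it is both regulator and readout. The motif CCGGAAGT, searched on both strands, was present in 3.89% of all windows. It begins 68 bases before the start in this window of Elk4 and was in neither of the other Elk4 windows, nor in any window of the other members. These matches are descriptions of sequence only, and binding was not measured.

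Before the members are compared, the libraries have to be described, because they did not divide by treatment. Across genes, log2(FPKM + 1) correlated more strongly between cytarabine 1 and control 3 (r = 0.965) than between cytarabine 1 and 3 (r = 0.894). FPKM are fragment numbers scaled to the length of the transcript and to the mapped total of the library. Zg16, a gene of colon goblet cells, reached 1049 to 2207 FPKM in 3 libraries (control 1, cytarabine 2 and cytarabine 3) and 9.49 to 137 FPKM in the rest. The former are called colon-high here (much colon transcript in the plots) and the latter colon-low. Colon-high libraries also held 962 to 1181 summed FPKM of 8 smooth muscle markers, against 24.7 to 168 FPKM in colon-low libraries. Heart markers, 8 in number, were highest in control 1 (2521 summed FPKM) and ranged from 7.46 to 686 FPKM elsewhere. Neutrophil markers, also 8, summed to 189 and 199 FPKM in cytarabine 3 and 2 and to 1433 to 2043 FPKM in the other libraries. The 6 fibroblast markers summed to 640.5 and 427.5 FPKM in control 1 and 2 and to 314 and 211 FPKM in cytarabine 3 and 2. In control 3 and cytarabine 1 they summed to 57.7 and 35.9 FPKM. The 6 macrophage markers summed to 153 FPKM in control 2 and to 12.7 to 58.0 FPKM elsewhere. The pan-leukocyte gene Ptprc was at 284 to 386 FPKM and Itga2, which encodes CD49b, at 7.79 to 13.3 FPKM. Of genes often used to define myeloid cells, Csf1r was at 0.912 to 5.81 FPKM and Itgam at 0.933 to 4.76 FPKM. The granulocyte precursor genes Mpo and Elane were at 71.1 and 81.7 FPKM in cytarabine 1 and at 2.33 to 12.3 FPKM in every other library. Erythroid markers summed to 305.6 FPKM in cytarabine 1 and to 36.6 to 70.3 FPKM elsewhere, so this library stood apart in both. Of T cell genes, Cd3e was at 130 to 199 FPKM and Lck at 75.5 to 105.5 FPKM. The 5 markers Cd4, Cd5, Cd8a, Cd8b1 and Cd247 were each under 1 FPKM in every library. Of 4 NK cell markers, Klrb1c was at 1.82 to 5.07 FPKM, and the other 3 were under 1 FPKM in every library. The single genes in this check were picked with earlier results known. Read totals inferred from the spacing of low FPKM values ran from 11420000 (control 3) to 18800000 (cytarabine 2). In such bulk RNA, fewer cells of a type and less RNA per cell cannot be told apart.

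Srf was the most abundant of the 7 mRNAs. Its levels were 54.1, 39.2 and 38.1 FPKM in the cytarabine libraries against 41.8, 45.3 and 49.0 FPKM in the control libraries. The highest and the lowest values were both cytarabine libraries, so the control range lay inside the cytarabine range. The means were 43.8 ± 8.96 FPKM with cytarabine and 45.4 ± 3.59 FPKM in controls (SD, n = 3 each). The log2 fold change was -0.07 (standard error 0.15, 95% interval -0.43 to 0.30, adjusted p = 0.819 from limma). The value rested on single libraries: without cytarabine 1 it was -0.22 (unadjusted p = 0.0442, adjusted p = 0.134 from limma), and without cytarabine 2 or 3 it was 0.0035 or 0.0247. Srf is transcribed from the minus strand of chromosome 17 (46548329 to 46556175, GRCm38), and its longest coding transcript has 7 exons.

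The MRTF mRNAs differed in level and in pattern. Mkl1, named for a fusion gene of megakaryoblastic leukemia, was at 20.5, 17.3 and 15.9 FPKM after cytarabine against 17.6, 23.7 and 25.7 FPKM without it. Its 2 highest values were controls, but control 1 lay inside the cytarabine range. Mkl2 was at 2.63, 3.61 and 4.42 FPKM after cytarabine against 3.04, 2.33 and 2.64 FPKM without it, with the opposite ordering and again with overlap. The log2 fold change was -0.29 for Mkl1 (standard error 0.16, 95% interval -0.70 to 0.11, adjusted p = 0.380 from limma) and 0.29 for Mkl2 (standard error 0.19, 95% interval -0.18 to 0.77, adjusted p = 0.420 from limma). Neither passed the test, and both intervals include 0. Mkl1 lies on chromosome 15 (81012281 to 81190757) and Mkl2 on chromosome 16 (13256481 to 13417529) of GRCm38.

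As a ratio within each library, Mkl1 exceeded Mkl2 in all 6. The ratio was 7.82, 4.81 and 3.61 in cytarabine 1, 2 and 3 and 5.79, 10.2 and 9.71 in control 1, 2 and 3. All colon-high libraries were at or below 5.79 and all colon-low ones at or above 7.82, so the ratio followed the colon division, and the treatment groups overlapped. Srf mRNA was 1.73 to 2.34 times the sum of Mkl1 and Mkl2 in the 6 libraries.

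Myocd was close to the limit of detection. It was listed at 0 in cytarabine 1 and control 3, and at 0.0675 FPKM in control 2, which corresponds to about 4 reads on its longest coding transcript of 5114 bases. The colon-high libraries cytarabine 2, cytarabine 3 and control 1 had 0.232, 0.440 and 0.356 FPKM, or about 21, 29 and 25 reads. A count of 3 reads equals 0.0325 to 0.0535 FPKM across the libraries, so the colon-high libraries were above that floor and the zeros allow a level up to it. The groups overlapped (0.224 ± 0.220 FPKM with cytarabine and 0.141 ± 0.189 FPKM in controls, SD, n = 3 each), and the exact two-sided permutation test gave p = 0.8. Groups of 3 mice cannot give less than 0.1 in that test. Myocd was below the mean of 1 FPKM required for the limma fit. It lies on chromosome 11 (65176561 to 65269989, GRCm38).

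**Figure D1:**
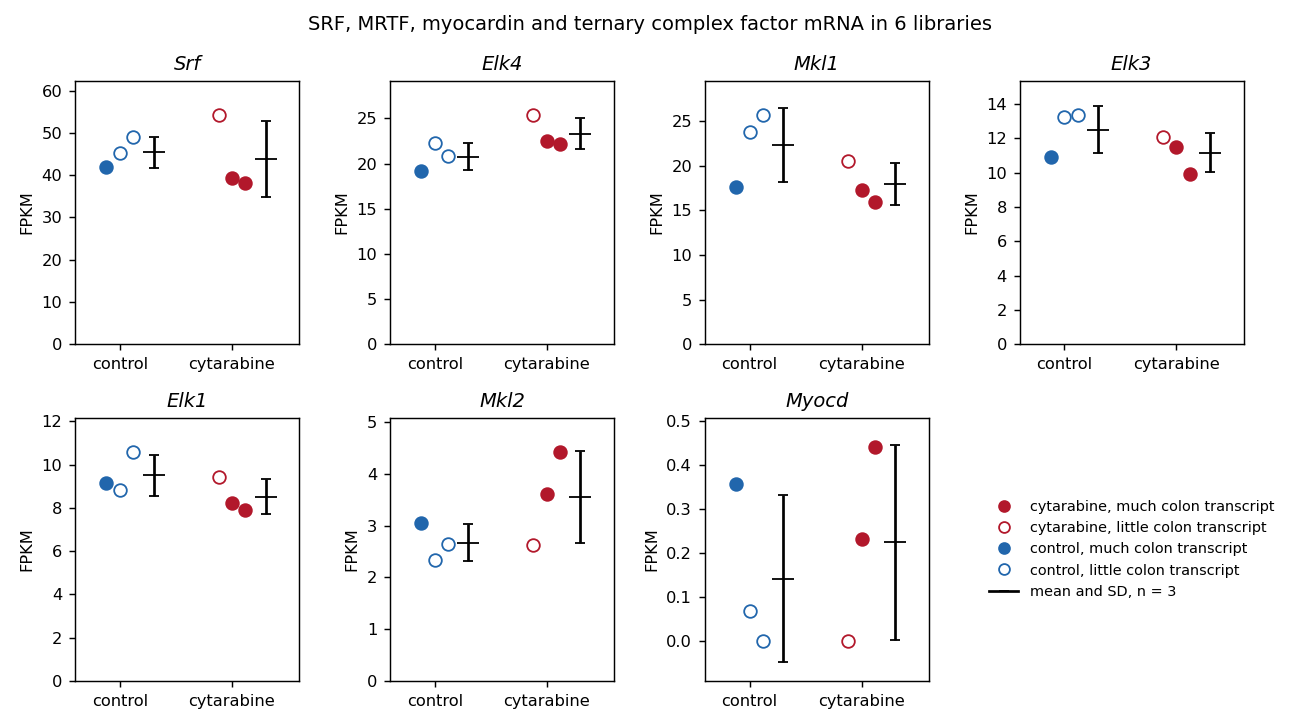
FPKM of each of the 7 genes (y axis, linear) in the 3 control and 3 cytarabine libraries, 1 point per mouse; filled points are colon-high libraries, and bars give the mean and SD (n = 3; for Myocd the SD of the controls reaches below 0). In every panel the cytarabine and control ranges overlap, while for Srf, Mkl1, Elk3, Mkl2 and Myocd the filled and open points do not.

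Among the ternary complex factors, Elk4 led. Its levels were 25.3, 22.5 and 22.2 FPKM in the cytarabine libraries against 19.2, 22.3 and 20.8 FPKM in the control libraries. Only control 2 reached into the cytarabine range, just above its lowest value. The means were 23.3 ± 1.75 and 20.8 ± 1.53 FPKM (SD, n = 3 each) and the log2 fold change was 0.16 (standard error 0.09, 95% interval -0.05 to 0.37, adjusted p = 0.369 from limma). Elk4 had the smallest adjusted p of the members, and it did not pass the threshold of 0.05.

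Elk3, the member with repressor activity, was at 12.1, 11.5 and 9.90 FPKM after cytarabine against 10.9, 13.2 and 13.3 FPKM without it. Elk1, the founding ternary complex factor, was at 9.45, 8.22 and 7.90 FPKM after cytarabine against 9.13, 8.81 and 10.6 FPKM without it. Both had lower means with cytarabine, and in both the groups overlapped. The log2 fold change was -0.15 for Elk3 (standard error 0.11, adjusted p = 0.482 from limma) and -0.14 for Elk1 (standard error 0.11, adjusted p = 0.474 from limma). The 95% intervals were -0.43 to 0.13 for Elk3 and -0.40 to 0.12 for Elk1. Elk4 lies on chromosome 1 (132007607 to 132032612), Elk3 on chromosome 10 (93247414 to 93311135) and Elk1 on chromosome X (20933395 to 20950608) of GRCm38. Exons of Elk3 share 316 bases (6.95% of its exon bases) with Cdk17 on the opposite strand, and exons of Elk1 share 76 bases (1.41%) with Uxt on the same strand. The strand setting of the read assignment is not given in the sources used here, so reads in those stretches could have been assigned to either gene.

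The mix of the 3 ternary complex factors separated the groups, which no single member did. Elk4 made up 54.1%, 53.3% and 55.5% of their summed FPKM in cytarabine 1, 2 and 3, and 49.0%, 50.3% and 46.5% in control 1, 2 and 3. The share was 54.3 ± 1.11% against 48.6 ± 1.92% (SD, n = 3 each), without overlap. Elk3 took 25.9 ± 1.23% with cytarabine and 29.2 ± 1.19% in controls, also without overlap, and Elk1 took 19.8 ± 0.337% and 22.3 ± 2.08%, with overlap. The 3 shares are parts of 1 whole, so a higher Elk4 share means a lower share of the others together. The shares and the ratio below are thus not separate results. The Elk4 to Elk3 ratio, which does not depend on library scaling, was 2.10, 1.96 and 2.24 with cytarabine and 1.76, 1.68 and 1.56 in controls. Each cytarabine library was thus above each control library, in the colon-high as in the colon-low libraries. Taking the ratio of every other tested gene to Elk3 in the same way, the groups did not overlap for 20.3% of 11702 genes, and cytarabine was higher for 15.8%, so a separation of this kind was common in these libraries. The ratio was picked after its values were seen and was given no p. The summed FPKM of the 3 genes was 43.0 ± 3.53 with cytarabine and 42.8 ± 3.05 in controls (SD, n = 3 each).

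**Figure D2:**
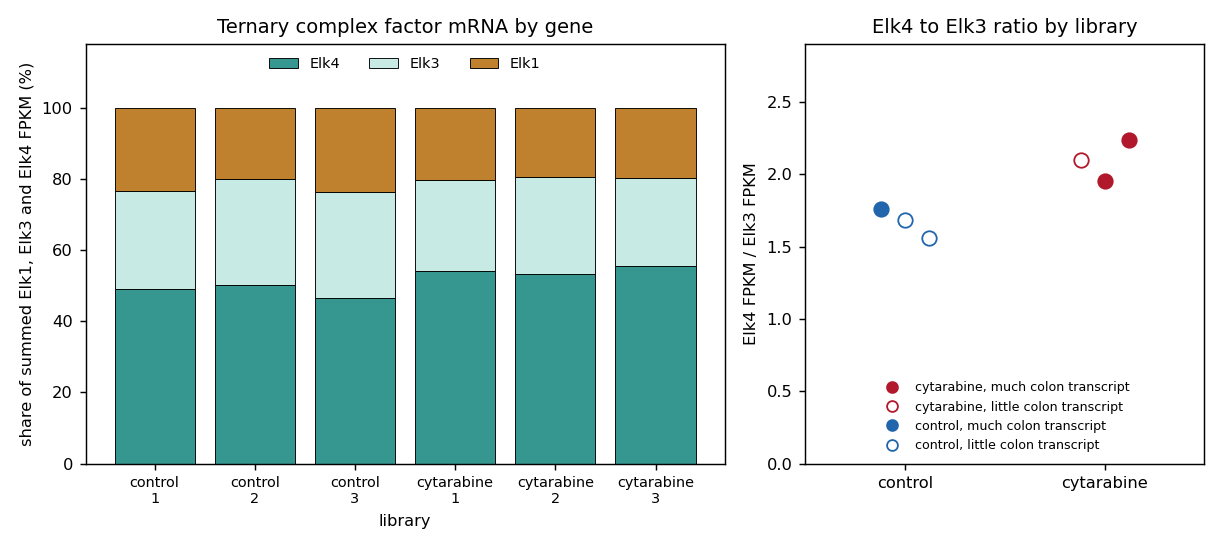
Left, share of the summed Elk1, Elk3 and Elk4 FPKM taken by each gene (y axis, %) in each library; right, Elk4 FPKM divided by Elk3 FPKM by group, 1 point per mouse, filled for colon-high libraries. The Elk4 share is 53.3% or more in the cytarabine libraries and 50.3% or less in the controls, and the ratio is 1.96 or more against 1.76 or less.

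The 6 members that averaged 1 FPKM or more were read against all 11703 genes tested. None had an adjusted p under 0.05 from limma, as was the case for all genes (0.0%, or 0 genes). None had an unadjusted p under 0.05, against 17.4% of all genes (7.6% higher and 9.81% lower with cytarabine), and in none did the groups fail to overlap, against 23.8% of all genes (10.9% higher and 12.9% lower). The median size of the log2 fold change, without its sign, was 0.15 over the 6 members and 0.18 over all genes. Of the 6, Mkl2 and Elk4 had positive and the others negative log2 fold changes.

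**Figure D3:**
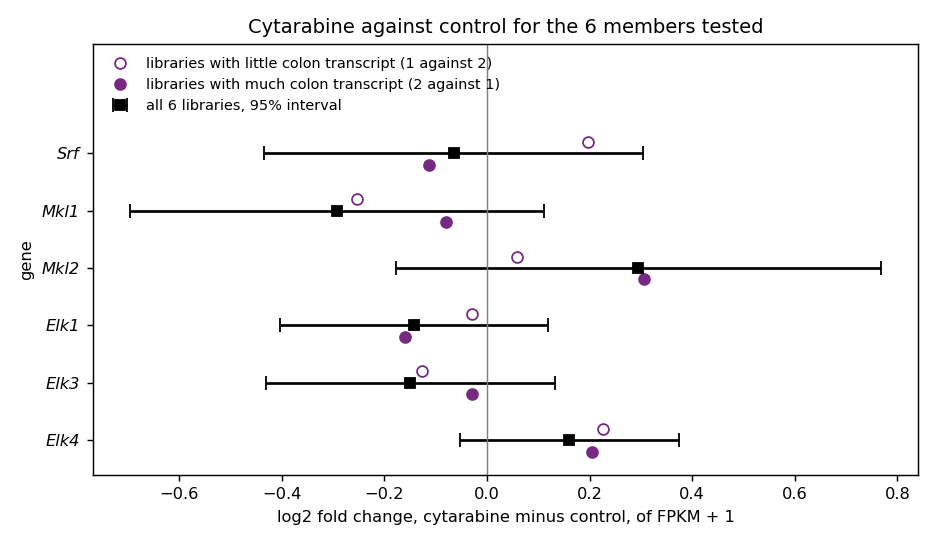
Log2 fold change of FPKM + 1 (x axis, cytarabine minus control) for the 6 tested members; squares give the limma estimate with its 95% interval, and circles the difference within the colon-low (open) and colon-high (filled) libraries, each with a single library on one side. Every interval crosses 0, and Srf is the gene whose circles lie on opposite sides of 0.

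The members were also set out by the colon division. In the colon-low libraries Srf was at 45.3 to 54.1 FPKM and in the colon-high ones at 38.1 to 41.8 FPKM, and the mean of the latter was 0.803 times that of the former. For Mkl1 the ranges were 20.5 to 25.7 and 15.9 to 17.6 FPKM (0.728 times), and for Elk3 12.1 to 13.3 and 9.90 to 11.5 FPKM (0.836 times). These 3 genes were lower wherever colon and smooth muscle transcripts were abundant. Mkl2 ran the other way, at 2.33 to 2.64 FPKM in colon-low and 3.04 to 4.42 FPKM in colon-high libraries (1.46 times), as did Myocd. In all, 5 of the 7 members did not overlap between the colon-high and colon-low libraries, and Elk1 and Elk4 did overlap. Of the 6 tested members, 4 did not overlap (1 higher and 3 lower in colon-high libraries), against 34.4% of all 11703 genes (17.2% higher and 17.2% lower), so such a division was common in these libraries. These sets of libraries were defined by Zg16 and are not the study's groups, so no test between them is given. The part of colon, smooth muscle, heart, fibroblast, macrophage or neutrophil RNA in any of these differences was not tested. The 7 endothelial markers summed to 19.4 to 31.9 FPKM, most of it Pecam1 (15.7 to 23.4 FPKM), and the other 6 were each at most 3.33 FPKM. Of these, Kdr was at 0.723 to 0.952 FPKM in colon-high and at 0.029 to 0.414 FPKM in colon-low libraries. Tie1 and Vwf, also under 1 FPKM in every library, were likewise higher in all colon-high libraries. Pecam1, Cdh5, Emcn and Egfl7 overlapped between the colon-high and colon-low libraries.

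**Figure D4:**
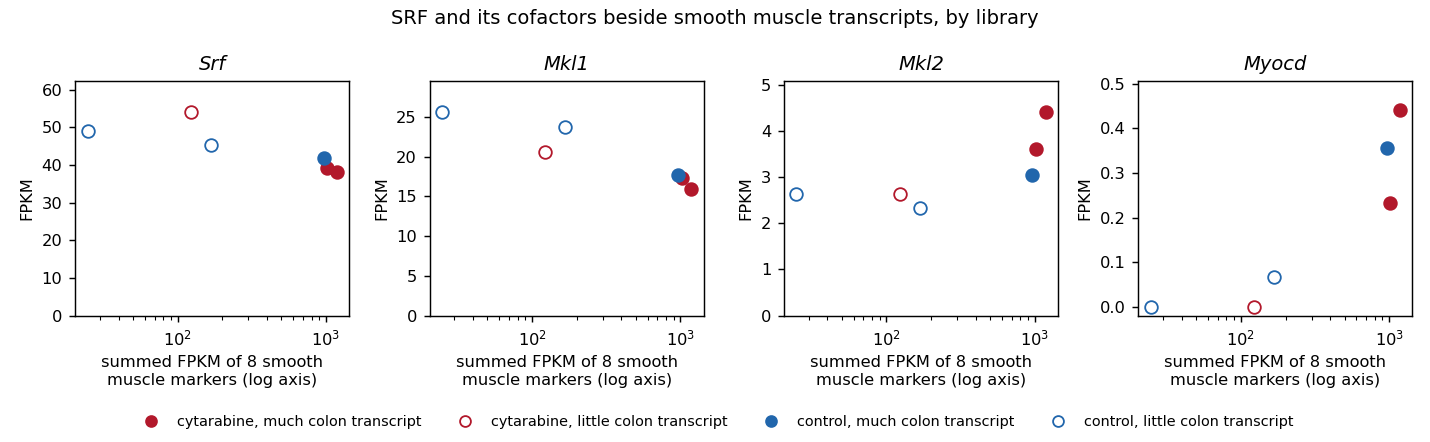
FPKM of Srf, Mkl1, Mkl2 and Myocd (y axes, linear) against the summed FPKM of 8 smooth muscle markers (x axes, log scale), 1 point per library, with cytarabine in red, control in blue and colon-high libraries filled. The 3 libraries at 962 to 1181 FPKM on the x axis have the lowest Srf and Mkl1 and the highest Mkl2 and Myocd.

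Within the colon division the treatment difference of each member was computed again. In the colon-low libraries (cytarabine 1 against control 2 and 3) the log2 difference was 0.20 for Srf, -0.25 for Mkl1, 0.06 for Mkl2, -0.03 for Elk1, -0.13 for Elk3 and 0.23 for Elk4. In the colon-high libraries (cytarabine 2 and 3 against control 1) it was -0.11 for Srf, -0.08 for Mkl1, 0.31 for Mkl2, -0.16 for Elk1, -0.03 for Elk3 and 0.21 for Elk4. The sign was the same on both sides for 5 of the 6 members, and for Srf it was not. Marker RNA still differed by treatment within each set. In colon-low libraries, colon markers summed to 238 FPKM in cytarabine 1 against 21.6 and 19.8 FPKM in control 2 and 3. In colon-high libraries they summed to 3133 and 3552 FPKM in cytarabine 2 and 3 against 1626 FPKM in control 1. Neutrophil markers there summed to 199 and 189 FPKM against 1438 FPKM. The part of this RNA in the differences was not tested. With the division as a covariate in limma, the log2 fold change of Elk4 was 0.22 (unadjusted p = 0.0139, adjusted p = 0.111) and that of Srf 0.042 (adjusted p = 0.788). In that fit 2961 of the 11703 genes had an unadjusted p under 0.05, and 379 had an adjusted p under 0.05. The covariate was itself drawn from Zg16 in these data.

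FPKM allow levels of different genes to be set side by side. The order of the mean over 6 libraries was Srf (44.6 FPKM), Elk4 (22), Mkl1 (20.1), Elk3 (11.8), Elk1 (9.01), Mkl2 (3.11) and Myocd (0.183). The mean of Srf was above that of 80.4% of the genes tested, and that of Mkl2 above that of 16.7%. Neighbours in this order were compared in the same library by an exact sign-flip permutation test on log2(FPKM + 1), two-sided over 6 libraries, with adjustment over 6 pairs. For 5 of the 6 pairs the gene with the higher mean was higher in 6 of 6 libraries (exact p = 0.0313, the smallest that 6 libraries can give, adjusted p = 0.0375). Elk4 and Mkl1 were not distinguishable, with Elk4 higher in 4 of 6 libraries and a mean log2 difference of 0.14 ± 0.28 (SD, n = 6 libraries, exact p = 0.281, adjusted p = 0.281). The widest step between neighbours above 1 FPKM was from Elk1 to Mkl2, 1.30 ± 0.37 on the log2 scale (SD, n = 6). The pairs were set by the means of the same 6 libraries, and cytarabine and control mice were pooled. An error in the FPKM of a gene that all libraries share is not measured by this test.

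Profiles across the 6 libraries were compared by the root mean square difference of log2(FPKM + 1) after centering each gene. Nearest to Srf were Jak3, a lymphoid cytokine receptor kinase (0.018), Zfp398 (0.029) and Dpy19l1 (0.030). Jak3 was at 15.6, 10.6 and 10.4 FPKM in the cytarabine libraries against 11.5, 12.7 and 13.7 FPKM in the control ones, so cytarabine 1 was highest, as for Srf. Nearest to Mkl1 were Kcnab2 (0.023), the leukocyte transcription factor Runx3 (0.027) and Coro1a, an actin-binding protein of leukocytes (0.046). Nearest to Mkl2 were Slc35a3 (0.041), Pcyox1 (0.042) and Cd2ap, an actin-linked adaptor (0.045). Elk1 was nearest to Exosc3, Ubp1 and Slc35d1, and Elk3 to Sart1, Tmem173 (STING) and Zfp282. Nearest to Elk4 was Actg1, the gene of cytoplasmic gamma-actin and a classic MRTF-SRF target (0.018), followed by Rapgef6 (0.031) and Flot2 (0.034). Actg1 was at 2378, 2066 and 2044 FPKM after cytarabine against 1782, 2055 and 1980 FPKM without it. With 6 points and 11703 genes, close profiles are found for any gene, and these names are descriptions. Among the members themselves Elk1 and Elk3 were the closest pair (0.10) and Mkl1 and Mkl2 the most distant (0.46).

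The genes upstream were then described as lists, without a test of any list. Of 23 genes of the RhoA and actin arm, which frees MRTFs from actin, 8 had positive and 15 negative log2 fold changes (median -0.07, against -0.0015 over all genes). An unadjusted p under 0.05 was found for 1 higher gene, Limk2, a kinase that inactivates cofilin. It was also found for 2 lower ones, Diap2, a formin, and Rhoa itself. Over all genes, 7.6% were higher and 9.81% lower at that threshold. Limk2 was at 15.1, 19.5 and 19.2 FPKM after cytarabine against 13.9, 12.8 and 13.2 FPKM without it (log2 fold change 0.40 ± 0.11, standard error, adjusted p = 0.192 from limma). Rhoa was at 208, 194 and 205 FPKM against 234, 224 and 219 FPKM (log2 fold change -0.16 ± 0.06, standard error, adjusted p = 0.251 from limma). The groups did not overlap for 4 of the 23 genes, these 3 and Ect2, against 23.8% of all genes.

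Of 15 tested partners of MRTF and SRF, 6 had positive and 9 negative log2 fold changes (median -0.06). Fhl2, a LIM protein that binds SRF and is also its target, was the 1 higher gene at an unadjusted p under 0.05. It was at 43.5, 36.5 and 36.0 FPKM after cytarabine against 31.3, 29.1 and 24.9 FPKM without it (log2 fold change 0.43 ± 0.12, standard error, adjusted p = 0.184 from limma). The 2 lower ones were the coactivator Crebbp (log2 fold change -0.37, adjusted p = 0.171 from limma) and the chromatin remodeler Smarca4 (-0.35, adjusted p = 0.222 from limma). Among all genes, 7.6% were higher and 9.81% lower at that unadjusted p. Scai, a repressor of MRTF, was at 3.76 to 5.82 FPKM, and Abra, a muscle activator of MRTF, did not reach the filter.

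Of 21 genes of the kinase arm that leads to the ternary complex factors, 10 had positive and 11 negative log2 fold changes (median -0.02). An unadjusted p under 0.05 was found for 2 higher and 3 lower genes, against 7.6% and 9.81% of all genes. Among them, Rps6ka1 was higher with cytarabine, and Rps6ka3, Mapk14 (p38 alpha) and Map2k2 (MEK2) were lower. The adjusted p from limma was 0.199 or more in this list.

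Readout genes of the same system were counted beside the members. Of 12 tested targets of ternary complex factors, 10 had positive log2 fold changes (median 0.41), against 5821 of all 11703 genes. At an unadjusted p under 0.05, 3 of the 12 were higher, against 7.6% of all genes. These were Egr1, Egr2 and Egr3, zinc-finger immediate-early genes. In the colon-low libraries the log2 differences of Fos, Dusp1, Mcl1 and Nr4a1 were -0.34, -0.14, -0.05 and -0.04. In the colon-high libraries they were 0.88, 1.17, 0.18 and 0.35. The other targets kept their sign in both sets, with only Fosb and Ier3 negative. Egr1 was at 61.4, 41.3 and 38.0 FPKM after cytarabine against 19.4, 22.7 and 17.2 FPKM without it (log2 fold change 1.18 ± 0.20, standard error, adjusted p = 0.136 from limma). Egr2 was at 7.004, 4.22 and 4.14 FPKM against 1.07, 1.84 and 1.51 FPKM (log2 fold change 1.29 ± 0.24, standard error, adjusted p = 0.137 from limma). For both, cytarabine 1, which had the most Srf and Elk4, was also the highest library. It is the library with the most Mpo, Elane and erythroid transcripts, whose part in these values was not tested. Fosb, the gene of this list whose cytarabine values all lay below the controls, was at 4.97, 4.53 and 3.11 FPKM against 5.13, 13.4 and 7.27 FPKM (log2 fold change -0.81 ± 0.34, standard error, adjusted p = 0.293 from limma), and Fos overlapped between the groups. The difference of the Egr genes was known when the list was chosen, so it is no independent support. A CArG box was in 4 of the 14 promoter windows of this list (28.6%), against 1.63% of all windows. All 4 belonged to 1 of the 10 genes that had a window, Egr2. Elements more than 250 bases before a start site were not searched.

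Of 21 non-muscle MRTF-SRF targets, 13 had positive and 8 negative log2 fold changes (median 0.03). At an unadjusted p under 0.05, 4 of the 21 were higher (Fhl2, Lima1, Tuft1 and Wdr1), against 7.6% of all genes. Tagln2 was the 1 lower gene, against 9.81% of all genes. For Lima1 the groups overlapped, at 14.5, 35.5 and 41.0 FPKM after cytarabine against 15.8, 9.41 and 10.2 FPKM without it. Actb and Actg1, the most abundant of the list, had log2 fold changes of 0.05 (standard error 0.14) and 0.16 (standard error 0.09). Of 17 muscle-type targets 14 had positive log2 fold changes (median 1.18). None had an unadjusted p under 0.05, against 17.4% of all genes. The smallest p among them was that of Csrp1 (adjusted p = 0.344 from limma). The muscle-type targets varied with the smooth muscle and heart markers, with which this list shares genes: Myh11, a smooth muscle myosin, ranged from 42.7 to 87.7 FPKM in the colon-high libraries and from 0.474 to 5.39 FPKM in the colon-low ones. Actin genes encode near-identical proteins, and reads from stretches of shared sequence could have been divided among them.

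**Figure D5:**
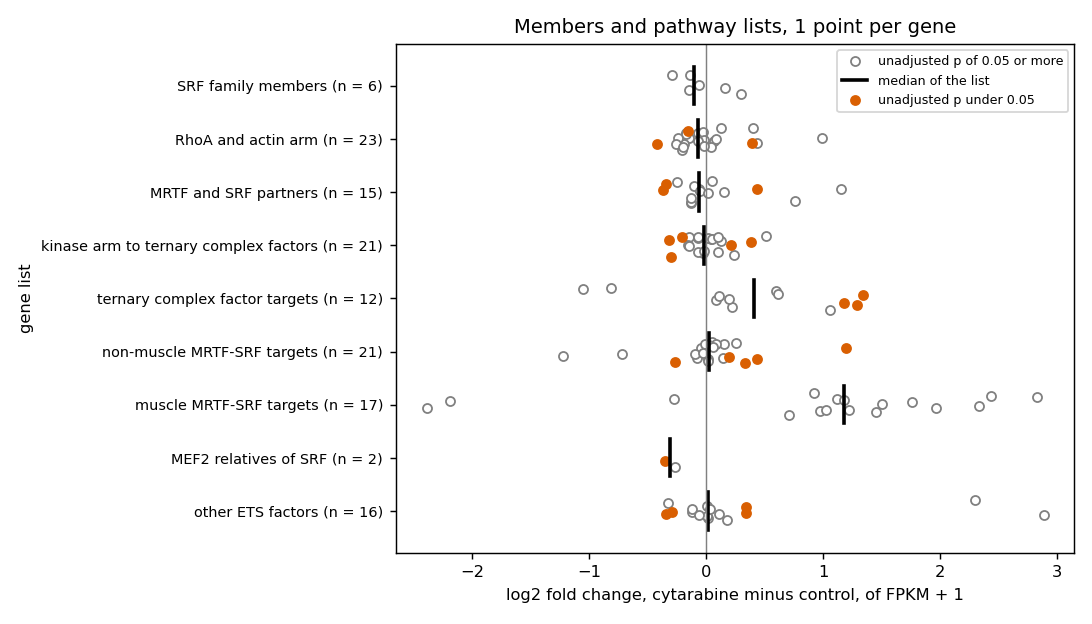
Log2 fold change of FPKM + 1 (x axis, cytarabine minus control) of each tested gene in the SRF family and in 8 pathway lists, 1 point per gene, with the list median as a black line; filled orange points have an unadjusted p under 0.05. The members sit between -0.29 and 0.29 with none filled, the ternary complex factor targets have a median of 0.41, and the muscle-type targets are widely spread with none filled.

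Relatives of the members were looked at last. Mef2d, a MADS-box relative of SRF, was at 23.1, 21.3 and 19.3 FPKM after cytarabine against 27.2, 28.6 and 26.1 FPKM without it (log2 fold change -0.35 ± 0.08, standard error, adjusted p = 0.166 from limma), without overlap. Mef2a overlapped between the groups, and Mef2b and Mef2c did not reach the filter. Of 16 tested ETS factors outside the ternary complex group, Ets1 and Ets2 were higher and Etv4 and Etv5 lower at an unadjusted p under 0.05. Of all genes, 7.6% were higher and 9.81% lower at that threshold. Ets1 was at 13.3, 12.3 and 13.1 FPKM after cytarabine against 9.55, 9.17 and 11.3 FPKM without it (log2 fold change 0.34 ± 0.10, standard error, adjusted p = 0.192 from limma). The epithelial ETS genes Elf3 and Ehf were between 9.52 and 64.5 FPKM in the colon-high libraries and between 0.115 and 3.35 FPKM in the colon-low ones.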

How the data were processed

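Single-end reads of 75 bases were aligned by the authors to mm10 with TopHat2 2.0.13, Bowtie2 2.2.3 and SAMtools 0.1.19, and deposited 1 FPKM value per gene and library from Cufflinks 2.2.1. The annotation is not given in the sources used here. The values are not counts, so no count test was run. Here log2(FPKM + 1) of the 11703 genes averaging 1 FPKM or more was fitted with limma 3.58.1 in R 4.3.3 (lmFit, then eBayes with a mean trend). Two-sided p-values were adjusted over all genes by Benjamini-Hochberg. The step was tested on simulated data with independent noise for each gene. Differences that many genes of a library share, as seen here, were not part of that simulation. A fold change on this scale understates that of low genes. The members, lists and tests were chosen with earlier results of these data known. Genes named are all members, in each list up to 3 per direction with the smallest unadjusted p under 0.05 or else the smallest p, and the 3 nearest profiles; other names were chosen after values were seen, and some genes of the kinase list are not reported here by name. Read totals were inferred from FPKM steps of 3457 genes with 1 transcript, with a fragment length of 200 bases assumed, and 73.0% to 77.5% of low values came within 0.1 of a whole read. Implied reads and floors cover counting error only. Replicate numbers come from the labels, which state no pairing, and the main fit did not use them as pairs. Alternatives were other pseudocounts, filters and scalings, no trend, the replicate block, the colon division as covariate, and leaving out each library. Positions are from GENCODE M21. Older symbols in the tables were matched through RefSeq (Hras1, Sfpi1, Emr1).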

Additional observations from a re-analysis of the deposited data

How the results depend on the processing

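None of the 89 results of the 6 tested members, 1 per member and alternative fit, had an adjusted p under 0.05 from limma. The smallest was 0.111, for Elk4 with the colon division as a covariate. The direction was the same in 86 of them, and the 3 reversals were all of Srf: 0.042 with the colon division as a covariate, and 2 fits that left out a library. In the colon-low libraries alone, an alternative added after the data were seen, the log2 difference of Srf was 0.20. Across the 6 fits that each left out 1 library, the log2 fold change ranged from -0.22 (without cytarabine 1) to 0.0247 (without cytarabine 3) for Srf, from -0.45 to -0.19 for Mkl1, from 0.16 to 0.45 for Mkl2, from -0.21 to -0.07 for Elk1, from -0.24 to -0.07 for Elk3 and from 0.10 to 0.21 for Elk4. With quantile normalization Mkl2 had 0.07 in place of 0.29. The cause was not tested. The 2038 genes with an unadjusted p under 0.05 were 994 with the replicate block and ranged from 1176 to 4111 across fits that left out 1 library. With that block, 0 genes had an adjusted p under 0.05, and Srf had a log2 fold change of -0.07. Libraries sharing a number deviated in opposite ways from the means of their groups (r = -0.71, -0.25 and -0.59). Libraries sharing a number also fell on opposite sides of the colon division, so these values cannot decide whether mice were paired. The labels state no pairing, and the numbers were not read as pairs. With the colon division as covariate 379 genes had an adjusted p under 0.05 and 2961 an unadjusted p under 0.05, 56.8% of these higher with cytarabine, against 43.7% without it. Depth limits Myocd alone among the members, since the others rest on 233 or more implied reads in each library. With 3 mice a group, the 95% intervals allow changes of up to 0.77 on the log2 scale, for Mkl2.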
